A study of Mus musculus with 8 samples.

Results

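RNA recovered with an antibody to the nuclear protein NONO from mouse liver 10 h after re-feeding was compared with RNA recovered by non-specific IgG. All 50609 peaks of the 10 h anti-NONO list were used, out of 206501 peaks in the 4 immunoprecipitate lists of the study, and each was checked for an IgG peak overlapping it by at least 1 bp. In total 30595 of the 10 h peaks had none and 20014 had 1 or more. Peak tags were then summed over each gene body and divided by the IgG sum. The livers came from wild-type C57BL/6 mice aged 14 weeks, kept under a 12 h:12 h light:dark cycle with food offered only at night, and the 10 h group was taken at zeitgeber time 22. The fasted group (zeitgeber time 10) and the group re-fed for 2 h (zeitgeber time 14) are used for reference only. For the IgG library the labels give the same strain and age but neither the hour nor the feeding state, so antibody, time of day and feeding cannot be told apart in this comparison. Each library was 1 pool of 2 experiments made from nuclei of whole liver, so there is no replicate error and no test between libraries. All intervals below are exact 95% intervals that cover counting error only, since sequenced tags are not independent molecules.

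NONO is a DNA- and RNA-binding protein of the DBHS family, whose partners are SFPQ and PSPC1. It is best known as a core protein of paraspeckles, nuclear bodies assembled on the long non-coding RNA Neat1, and it also associates with nascent transcripts and with PER proteins of the circadian clock. In liver, clock genes and genes of glucose and fat metabolism are transcribed rhythmically with feeding. Nuclear RNA holds many unspliced transcripts, and an IgG library is the usual measure of how much of a transcript is recovered without the antibody.

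The 10 h library held 18275033 tags, with 17.3% of them in peaks, and the IgG library held 18995778 tags, with 53.2% in peaks. Values are normalised tags, the tags of a peak per 10000000 tags of its library. One IgG peak, at Rn7sk (mm10, chr9:78175137-78175764), whose 7SK RNA is very abundant in nuclei, took 7120434 tags or 37.5% of that library, and no NONO list had a peak there. Because that peak lowers every other IgG value, IgG tags were multiplied by 1.60 to bring them to the library outside it (a shift of 0.68 in log2). Rescaled IgG values are used throughout unless the deposited scale is named. Input tags and fold over input are the exception. They were not rescaled, so the IgG values and the limits of 2-fold and 3-fold over input count the Rn7sk peak in the IgG library.

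The share of 10 h peaks without an IgG peak was 60.5% (60.03 to 60.88%). It was lower the more tags a peak held: 82.5% of the peaks in the lowest tag quartile (under 10.9 normalised tags) were free of IgG, then 69.6% and 55.7%, and 35.3% in the highest quartile (33.9 tags or more). It was also lower in wide peaks, at 72.2% for peaks of 500 bp against 21.7% for peaks of 2000 bp or more. By the authors' fold over the matched input, 48.9% of peaks under 3-fold and 75.4% of peaks at 3-fold or more had no IgG peak. Peaks free of IgG held fewer tags: their median was 14.2 normalised tags over 625 bp at 3.14-fold over input, against 27.4 tags over 797 bp at 2.50-fold for peaks that met IgG. They held 7.36% of the 10 h library's tags, and the peaks that met IgG held 9.96%. In the other direction, 36379 of 55946 IgG peaks (65.0%) had no 10 h peak over them.

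**Figure D1:**
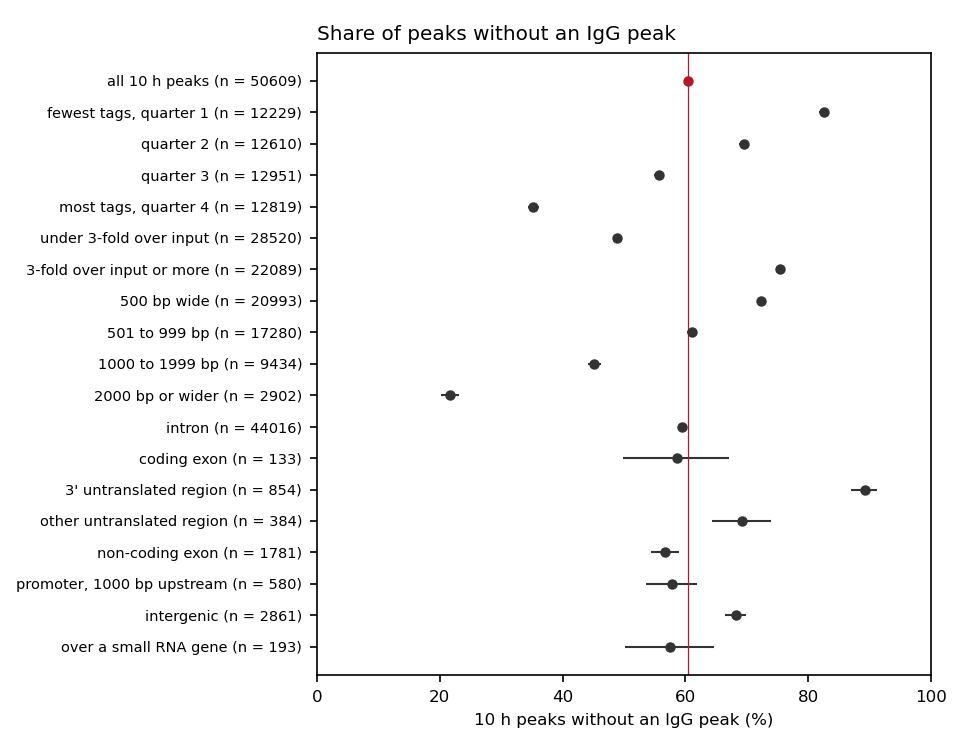
Percentage of 10 h NONO peaks without an overlapping IgG peak (horizontal axis, %) by tag quartile, fold over input, width and annotation, with exact 95% intervals as bars and the number of peaks in each label. The value for all peaks, 60.5%, is the red point and line; peaks centred in 3' untranslated regions stand at 89.2% and peaks of 2000 bp or more at 21.7%.

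Peaks centred in 3' untranslated regions, the stretch of an mRNA after its stop codon, had the highest IgG-free share of the annotation classes plotted. Of 854 such peaks, 762 had no IgG peak (89.2%, 87.0 to 91.2%), against 59.5% of the 44016 intronic peaks and 58.6% (49.8 to 67.1%) of the 133 peaks in coding exons. The share was above that of all peaks in every tag quartile: 93.2%, 91.7%, 91.5% and 84.1% from the lowest to the highest. These regions made up 2.49% of IgG-free peaks, 0.460% of peaks that met IgG and 0.620% of the IgG list. Their frequency was 1.53% of the fasted list, 1.26% of the 2 h list and 1.69% of the 10 h list. Most lay close to the calling limit, with a median fold over input of 2.36, and 654 of the 854 were under 3-fold. The most tagged were over Fcgr2b, an inhibitory Fc receptor of macrophages and liver endothelium (872.2 normalised tags), Slc38a2, an amino acid transporter (781.9 tags), Mospd2 (427.9 tags), Rbm47, an RNA-binding protein (417.0 tags), and Dhtkd1, a mitochondrial dehydrogenase subunit (374.3 tags, in a region that also holds Gm13267). Peaks in other untranslated regions were free of IgG in 69.3% (64.4 to 73.9%) and intergenic peaks in 68.2% (66.5 to 69.9%).

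Of 32106 protein-coding and long non-coding genes (GENCODE vM21), 10475 had a peak in 1 or both libraries. A 10 h peak lay in 8351 genes (26.0% of all genes). Counted over the 10475, 1605 genes (15.3%) had 10 h peaks and no IgG peak, 1311 (12.5%) were at least 2-fold above rescaled IgG, 3822 were within 2-fold, 1613 (15.4%) were at least 2-fold below, and 2124 (20.3%) had IgG peaks only. Genes above background, meaning without an IgG peak or at least 2-fold above it, thus numbered 2916 (27.8%). An IgG peak is listed only from 8 tags and 2-fold over input, so a gene without one is given no ratio. Among the 6746 genes with peaks in both libraries, 19.4% were 2-fold above and 23.9% 2-fold below. The median ratio there was 0.948 (quartiles 0.521 and 1.70), and 1.52 on the deposited scale.

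The genes without an IgG peak were short and thinly covered. Their median length was 14.9 kb with 1 peak and 16.97 normalised tags, 1191 of the 1605 had a single peak, and 71 reached 100 tags. Together they held 2.99% of the 10 h tags summed over genes. Genes 2-fold above IgG had a median of 108 tags in 4 peaks over 35.1 kb and held 17.1% of the tags, and genes within 2-fold held 65.7%. Long non-coding genes made up 24.4% of genes without an IgG peak, 10.98% of those 2-fold above and 22.6% of those with IgG peaks only. Among the listed genes, those nearest the 2-fold line were Tsc1 (2.05) and Phkb (2.07) just inside it, and Abcb11 (1.99) and Cyp3a25 (1.96) just outside.

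Ratios of summed tags moved with the length covered by peaks more than with tag density. Genes 2-fold above IgG had a median of 3406 bp under 10 h peaks and 1150 bp under IgG peaks, while the median density was 27.7 tags per kb at 10 h and 21.6 rescaled tags per kb in IgG. Their median enrichment over the matched input, on the authors' scale, was 2.69-fold at 10 h and 4.78-fold in IgG. Input under the peaks had a median of 37.0 normalised tags at 10 h and 4.001 in IgG. For genes 2-fold below IgG the covered lengths were 1128 and 3039 bp and the input values 10.9 and 26.8 tags, at 2.90-fold and 2.96-fold enrichment. The part of input abundance in the ratios was not tested. In all, 77 genes chosen by the naming rule or named here were 2-fold above or below IgG. By tags per kb of peak, 31 of them stayed past 2-fold on the same side. Another 38 came within 2-fold on the same side, and 8 crossed to the other side but also lay within 2-fold of IgG.

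**Figure D2:**
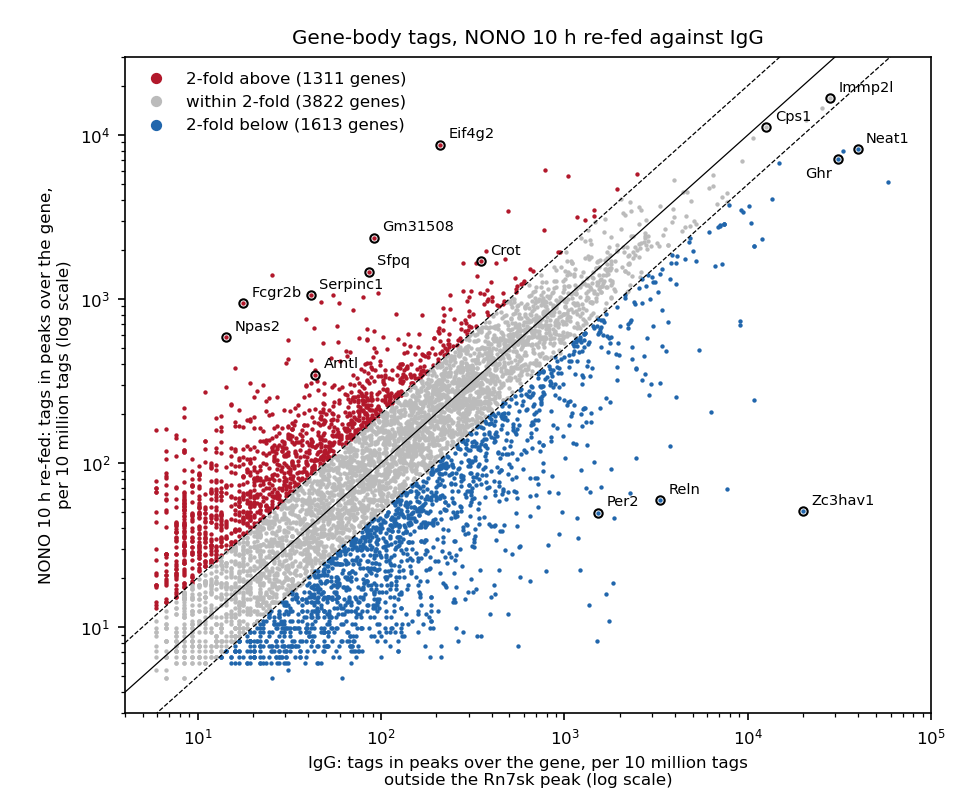
Normalised tags summed over each gene in the 10 h NONO library (vertical axis, log scale) against rescaled IgG tags (horizontal axis, log scale) for the 6746 genes with peaks in both; the solid line marks equal values and the dashed lines 2-fold. Npas2, Sfpq and Serpinc1 lie far above the upper line, and Neat1, Per2 and Reln lie below the lower one.

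The highest ratio among genes with at least 100 tags, counting only genes whose tags lay mostly in peaks over no other gene, belonged to Fcgr2b. Its normalised tags numbered 777.8 fasted, 384.1 at 2 h and 943.9 at 10 h, against 17.8 rescaled IgG tags from 1 peak of 21 tags, in a region where the antisense gene Gm38204 overlaps it. The 10 h library was highest and all 3 NONO libraries exceeded IgG, with a 10 h ratio of 53.2 (34.8 to 86.5). The peak in its 3' untranslated region made up 872.2 of the 10 h tags, and the 3 other peaks held between 11.5 and 33.9.

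Npas2 encodes the PAS-domain partner of BMAL1 that can stand in for CLOCK. Over its gene body (chr1:39193731-39363236, plus strand) the 10 h library had 586.5 normalised tags in 23 peaks, none of which met an IgG peak. The fasted and 2 h lists had no Npas2 peak, and IgG had 1 peak of 17 tags, 14.3 rescaled tags. The ratio was 40.97 (25.5 to 70.6). The 23 peaks were spread over the gene, with the most tagged at 66.2 normalised tags in an intron, and their density per kb was 1.12 times that of the IgG peak. On the deposited scale, input tags under the peaks were 223 at 10 h and 2.53 in IgG, and the fold over input was 2.63 and 3.54.

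Arntl, which encodes BMAL1 itself, stood above IgG over all peaks, but at 0.836 when only peaks at 3-fold over input or more were counted. It had no fasted peak, 46.9 tags at 2 h and 345.3 tags in 16 peaks at 10 h, against 43.8 rescaled IgG tags in 4 peaks (ratio 7.89, 5.94 to 10.7). Of its 16 peaks 13 were free of IgG. Input under the peaks was 142 tags at 10 h and 3.05 in IgG, and the fold over input was 2.43 at 10 h and 8.97 in IgG. The other activator, Clock, had 289.1, 1244.9 and 697 tags in order of time against 492.6 in IgG, a 10 h ratio of 1.41.

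Several repressor genes of the clock lay on the other side. Per2, a period gene whose protein represses CLOCK and BMAL1, had 21.8 (fasted), 439.8 (2 h) and 49.75 tags (10 h) against 1521.5 rescaled IgG tags in 11 peaks that covered much of the gene, a ratio of 0.0327 (0.0262 to 0.0404). Per1 stood at 0.202, Per3 at 0.0386, Cry2 at 0.147 and Nr1d2, a REV-ERB repressor, at 0.206. Per kb of peak Cry2 was at 0.865 and Nr1d2 at 1.35, and Cry2 was at 1.15 over peaks that lay in no other gene. The repressor genes Cry1 (1.49) and Nfil3 (1.88) were within 2-fold, Bhlhe41 had an IgG peak only, and Nr1d1, Bhlhe40 and Ciart had no peak in either library. Dbp, a clock output gene, had a single 10 h peak of 24.6 tags and no IgG peak. Of the 19 clock genes with a peak, 3 were above background (15.8%, against 27.8% of all genes) and 5 were within 2-fold. A further 9 were 2-fold below (15.4% of all genes) and 2 had IgG peaks only (20.3% of all genes). The list's median ratio over 16 genes was 0.441.

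**Figure D3:**
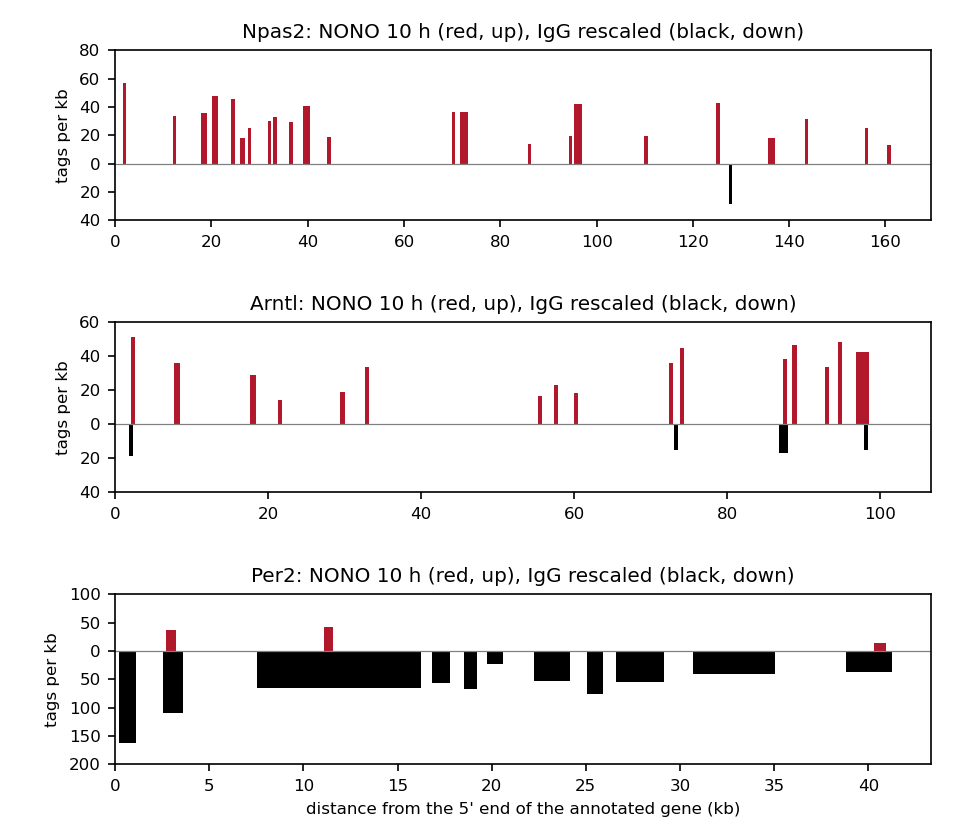
Tags per kb of each 10 h NONO peak (red, upward) and each rescaled IgG peak (black, downward) along Npas2, Arntl and Per2; the horizontal axis is the distance in kb from the 5' end of the annotated gene and the narrowest bars are widened to stay visible. Npas2 has 23 NONO peaks and 1 IgG peak, Arntl 16 and 4, and Per2 has 3 NONO peaks and 11 IgG peaks.

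Among the proteins of NONO's own complex, the gene of SFPQ stood out. Sfpq had 44.2 normalised tags fasted, 2861.4 at 2 h and 1467.6 at 10 h, against 85.9 rescaled IgG tags (ratio 17.1, 14.02 to 21.03). The fasted value was below IgG and both re-fed values were far above it. Its largest 10 h peak (1132.7 tags, intronic) met no IgG peak. Nono itself was at 145.5 against 54.7 tags (2.66) and Pspc1 at 593.7 against 1001 (0.593). Of 24 paraspeckle and nuclear RNA-binding protein genes, 6 were above background (25%), near the 27.8% of all genes. They included Rbm14 (2.88), Cpsf7 (3.22) and Hnrnph3 (2.19, and 0.844 over regions with a peak in both libraries). The genes of TDP-43 (Tardbp, 0.0305) and hnRNP K (Hnrnpk, 0.0389) were far below.

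Neat1, the scaffold of paraspeckles, was not above IgG at 10 h. Its tags numbered 30057.4 fasted, 20421 at 2 h and 8227.1 at 10 h, against 39727.6 rescaled and 24836 deposited IgG tags. All 3 NONO values were below rescaled IgG, the fasted value was above deposited IgG, and the 10 h value was lowest on both scales, with a ratio of 0.207 (0.203 to 0.211). The fold over input was 2.33 at 10 h and 2.51 in IgG. Of the 6 nuclear non-coding RNA genes with a peak, Rian had 16.4 tags and no IgG peak, Neat1, Kcnq1ot1, Snhg11 and Airn were 2-fold below, and Gas5 had IgG peaks only. Per kb of peak, Kcnq1ot1 (1.21) and Airn (1.05) were not below IgG. All Kcnq1ot1 tags of both libraries lay in peaks that also met another gene. For Airn, 49.7% of the 10 h tags and 42.1% of the IgG tags lay in peaks over that gene alone. The lists carry no strand, so shared tags cannot be assigned to these antisense genes. Malat1 had no listed peak in any of the 4 libraries. A less studied transcript, the lincRNA Gm31508 (chr12:28910229-29041874), had 2366.1 tags in 23 peaks at 10 h, none in the fasted and 2 h lists, and 91.8 rescaled IgG tags in 9 peaks (25.8, 21.3 to 31.5). When only peaks at 3-fold over input or more were counted, its ratio became 0.275.

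The remaining genes of the 10 largest ratios were Eif4g2, described with the small RNAs below, Ralgps2 (26.9), Serpinc1 (25.7), Stk24 (24.8), Masp2 (23.9), Bloc1s6 (22.6) and Zfp799 (20.3). Serpinc1 encodes antithrombin, the main inhibitor of thrombin made by hepatocytes. It had 243.9, 631.6 and 1059.9 tags in order of time against 41.3 in IgG, with an interval of 19.4 to 34.8 on the 10 h ratio. It also had 4.72 times the tag density of IgG. Masp2, a complement protease made in liver, had 64.7, 117.1 and 160.9 tags against 6.73. Ralgps2, Stk24, Masp2, Bloc1s6 and Zfp799 each had 1 IgG peak of between 5.90 and 14.3 rescaled tags, so their intervals are wide (12.9 to 67.6 for Ralgps2).

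Of the 10 most tagged genes without any IgG peak, the first was Fgb, which encodes the fibrinogen beta chain. It had 1607.7 tags in 1 intronic peak of 777 bp at 2.07-fold over input, and no peak in the fasted or 2 h list. Selenop, the selenium transport protein of plasma, followed with 893 tags in 2 peaks, none fasted and 118.5 at 2 h. Rbm15, which recruits the m6A writer complex to RNA, had 560.3 tags in 1 peak, against 268.6 fasted and 135.6 at 2 h. The carboxylesterase genes Ces3a and Ces3b had 264.8 and 233.6 tags, and Soat2, which esterifies cholesterol in hepatocytes, had 238 against 35.7 and 11.9 at the earlier times. AC117816.1 (322.3 tags), Mcts1 (303.7), Thoc7 (279.1) and Fnta (228.2) completed the group. Ahsg, the fetuin-A gene, had an IgG-free peak of 1595.6 tags in a region shared with Gm30505 and so was left out of the ranking.

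**Figure D4:**
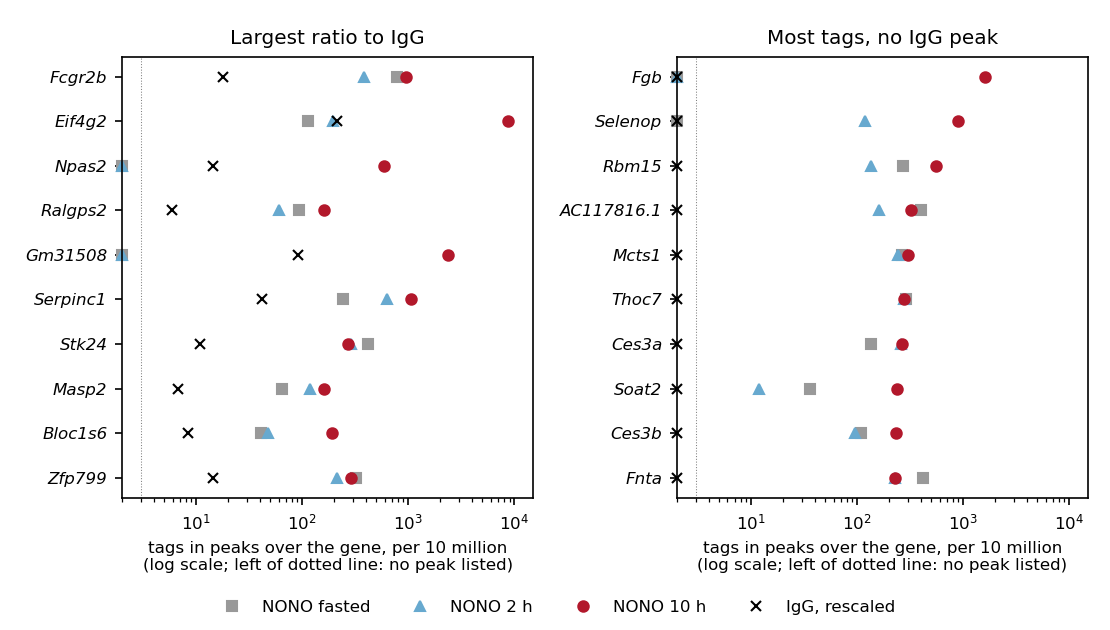
Normalised tags (log scale) over the 10 genes with the largest ratio to IgG and the 10 most tagged genes without an IgG peak, in the fasted, 2 h and 10 h NONO libraries and in rescaled IgG; symbols left of the dotted line mean that no peak is listed. Npas2, Gm31508 and Fgb have 10 h peaks and none at the earlier times, and Fcgr2b and Zfp799 are above IgG in all 3.

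Of the 8 genes with most NONO tags, Eif4g2 was above IgG, Neat1 was below it as given above, and the other 6 were below rescaled IgG. Immp2l, a mitochondrial peptidase subunit, had 16776.3 tags in 172 peaks against 28223.6 in IgG (0.594). Dpyd, which breaks down pyrimidines, stood at 0.577, Adk (adenosine kinase) at 0.596, Cps1, the first enzyme of the urea cycle, at 0.884, Ptprd at 0.895 and Zbtb20 at 0.244. On the deposited scale, with the Rn7sk peak in the IgG total, the values in the same order were 0.951, 0.923, 0.954, 1.41, 1.43 and 0.390, so that Cps1 and Ptprd change sides.

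The highest single peaks free of IgG lay over annotated small RNAs within genes. The most tagged IgG-free peak of the whole list lay in Eif4g2 (8657.2 normalised tags, chr7:111075761-111076639) and spanned the annotated snoRNA gene Gm23262 in full. The next held 5422.7 tags in Kpna4 (chr3:69084492-69085211) and reached 107 bases into the annotated scaRNA gene Gm22009. Both annotations are on the minus strand, at chr7:111076060-111076227 and chr3:69085105-69085447. The peak in Eif4g2 had no counterpart in the fasted and 2 h lists, and the one in Kpna4 overlapped a fasted peak of 21.9 tags that stopped short of the small RNA, with none at 2 h. Their sequences in the GENCODE vM21 transcripts (mm10), shown because they lie under the 2 most tagged IgG-free peaks, have in capitals the bases inside the peak, with 30 bases before it for Gm22009.
Gm23262: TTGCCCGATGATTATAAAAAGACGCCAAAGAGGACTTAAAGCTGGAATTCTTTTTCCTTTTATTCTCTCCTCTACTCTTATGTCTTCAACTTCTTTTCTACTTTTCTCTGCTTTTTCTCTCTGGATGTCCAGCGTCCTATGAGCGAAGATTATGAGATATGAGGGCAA
Gm22009: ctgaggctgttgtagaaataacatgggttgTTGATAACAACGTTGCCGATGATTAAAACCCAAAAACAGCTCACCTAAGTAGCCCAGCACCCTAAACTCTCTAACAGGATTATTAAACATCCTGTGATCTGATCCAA
Eif4g2, a translation initiation factor gene, thus had 112.2 tags fasted, 193.9 at 2 h and 8726.7 at 10 h against 210.5 in IgG, and only the 10 h library stood above IgG. Without peaks over small RNA genes its ratio went from 41.5 to 0.330.

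MicroRNA hairpins, the precursors of mature miRNAs, also lay wholly or partly under IgG-free 10 h peaks: 36 of the hairpins listed by RefSeq, under 31 peaks. Across all small RNA genes of GENCODE vM21, which annotates more miRNA genes than that table, the IgG-free share was near that of the whole list, 111 of 193 peaks or 57.5% (50.2 to 64.6%), with 45 of 76 over miRNA genes. Mir21a, an abundant miRNA of stressed and growing cells, lay beside Vmp1 under a peak of 1463.2 tags at 2.56-fold over input, with 2262.7 tags fasted and 2302.4 at 2 h. Mirlet7d had 1598.9, 2007.5 and 479.3 tags in order of time, so that the 10 h value was lowest. Mir148a, a major hepatocyte miRNA, had 246.3, 621.6 and 475.5 tags. Of the 36 hairpins, 5 give a mature miRNA of the let-7 seed, 2 of the miR-148 seed and 2 of the miR-221 seed. The let-7 and miR-148 groups were taken because a member of each was among the most tagged. The share of each seed among all hairpins was not counted, so these numbers show no enrichment of a seed. Mature sequences from RefSeq (GRCm38.p6), shown for the 3 hairpins described and for the other members of their seed groups, have the seed (bases 2 to 8) in capitals.
miR-21a-5p: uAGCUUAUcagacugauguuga
let-7d-5p: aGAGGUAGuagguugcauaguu
let-7c-5p: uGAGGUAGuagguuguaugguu
let-7g-5p: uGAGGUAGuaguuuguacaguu
let-7b-5p: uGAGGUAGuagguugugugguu
let-7e-5p: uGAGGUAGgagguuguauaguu
miR-148a-3p: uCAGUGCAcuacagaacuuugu
miR-148b-3p: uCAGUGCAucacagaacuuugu
The peaks over let-7c-1, let-7g, let-7b, let-7e and Mir148b held 234.2, 176.2, 67.3, 18.1 and 60.2 tags. The let-7e peak began past both mature sequences of its hairpin and met only the hairpin's end, so let-7e-5p itself lay outside it. Since RNA was sequenced from total nuclear libraries, these tags cover the region of the hairpin and its host transcript and are not counts of the mature miRNA.

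Metabolic genes were split. Fatty acid oxidation and ketogenesis had 9 of 23 genes above background (39.1%, against 27.8% of all genes) and a median ratio of 1.05. Crot, which moves medium-chain acyl groups out of peroxisomes, had 402.2, 452.4 and 1705 tags in order of time against 352.1 in IgG, and the 10 h value exceeded IgG by 4.84-fold (4.37 to 5.38). Hadhb, the thiolase subunit of the trifunctional protein, stood at 6.09 (0.781 over peaks at 3-fold over input), Ehhadh at 4.96 and Etfa, an electron transfer flavoprotein, at 4.02. Ppara, the nuclear receptor that drives fat oxidation in fasting, was at 0.368.

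Glycogen metabolism had 6 of 15 genes above background (40.0%, against 27.8% of all genes) with a median of 0.971. Among the 6 were Gyg (6.57 tags) and Gsk3a (8.21 tags), each with a single 10 h peak of few tags and no IgG peak. Ppp1r3c, a glycogen-targeting phosphatase subunit, had 84.2, 133.7 and 426.8 tags against 41.3 in IgG (10.3), with 1 peak in each library. The phosphorylase kinase subunits Phka2 (2.64), Phkb (2.07) and Phkg2 (6.50) were all above 2-fold, but at 0.715, 0.292 and 0.845 when only peaks at 3-fold over input were counted. The liver glycogen synthase Gys2 was at 0.336 and the phosphorylase Pygl at 0.494, which became 1.05 per kb of peak.

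Glycolysis and glucose uptake had 1 of 17 genes above background (5.88%), where all genes had 27.8%, the share against which the next 3 lists are also read. Slc2a2, the GLUT2 transporter, had 81 tags against 650.9 (0.124, and 2.47 over peaks at 3-fold over input). All its tags in both libraries lay in peaks that also met another gene. In gluconeogenesis 3 of 15 genes were above background (20%): Ppargc1a, a fasting-induced coactivator, had 214.6 tags in 9 peaks and no IgG peak, Creb1 was at 2.98 and Got1 at 2.15. Pck1, G6pc and Tat had IgG peaks only, with 4679, 59.0 and 6088 rescaled tags. Lipogenesis and sterol synthesis had 3 of 27 above background (11.1%, median 0.552). Scd1, the stearoyl-CoA desaturase, had no fasted peak, 117.1 tags at 2 h and 475 at 10 h against 67.3 in IgG (7.05), Cyp51 was at 2.30 (0.158 over peaks at 3-fold over input) and Sqle had 183.9 tags and no IgG peak, whereas Fasn had 3433 rescaled IgG tags and no 10 h peak. Insulin and nutrient signalling had 4 of 23 above (17.4%), with Insr at 1.27, Rps6kb1 at 2.75 (0.359 over peaks at 3-fold over input), Egfr at 0.301 and Ghr at 0.229, though Ghr had 1.25 times the IgG density per kb of peak.

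Genes of plasma proteins and the urea cycle were spread much as all genes were. Of 24 with a peak, 8 were above background (33.3%, against 27.8%), 6 were 2-fold below (15.4% of all genes) and 6 had IgG peaks only (20.3% of all genes). Beside Serpinc1, Fgb and Ahsg, prothrombin (F2) was at 7.49 (0.428 over regions with a peak in both libraries), apolipoprotein H (Apoh) at 4.94 and kininogen (Kng1) at 3.10. Alb, the albumin gene, had no peak at the earlier times and 1710 tags in 1 peak at 10 h, against 5220 rescaled tags in 2 IgG peaks (0.328). The Alb peak itself was free of IgG, with the IgG peaks to either side of it. Transferrin (Trf, 0.0770) and argininosuccinate synthase (Ass1, 0.0930) were far below by summed tags, and per kb of peak they stood at 0.127 and 1.98. Of 21 bile acid and xenobiotic genes 3 were above (14.3%, against 27.8%), each without an IgG peak: Slc27a5 (135.1 tags), Ugt2b1 (64.0) and Cyp1a2 (20.8). Another 8 of the 21 were 2-fold below (15.4% of all genes), including Cyp7a1, the rate-limiting enzyme of bile acid synthesis (0.162, and 0.535 per kb of peak). Abcb11, the bile salt export pump, had 204.3, 1542.8 and 4059.6 tags in order of time against 2044 in IgG.

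**Figure D5:**
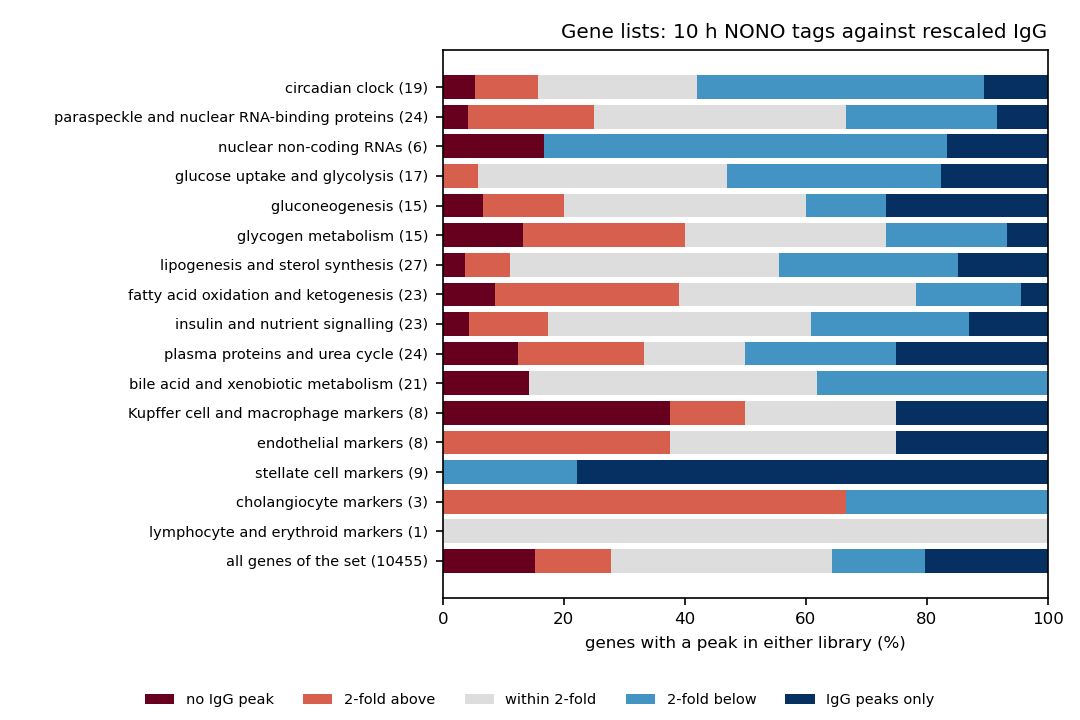
Share of the genes of each list (horizontal axis, %; number of genes with a peak in either library in brackets) without an IgG peak, 2-fold above, within 2-fold, 2-fold below rescaled IgG, and with IgG peaks only; the bottom bar counts each gene symbol once and so holds 10455 genes. Glycogen and fatty acid oxidation lists have 40.0% and 39.1% of genes above background, glycolysis 5.88%, and stellate cell markers 0.

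Hepatocyte genes were covered unevenly at 10 h. Of the 27 plasma protein and urea cycle genes, 18 had a 10 h peak, from 11168.9 tags over Cps1 to 50.4 over Asl, another urea cycle enzyme. Ttr, Apoe, Fga, Fgg, Hp and Hpx had IgG peaks only, and Apoa1, Serpina1a and Arg1 had no peak in either library. The 13 lymphocyte and erythroid markers had no peak in either library except Alas2, whose peaks all met another gene as well. Markers of other liver cells differed in how they stood to IgG. Of 8 Kupffer cell and macrophage markers with a peak, 4 were above background (50%, against 27.8% of all genes), at low values: Cd5l had 34.5 tags, Timd4 13.7 and Clec4f 8.21 without IgG peaks, and Adgre1 was at 3.06. Ptprc and Mrc1 were within 2-fold, and Vsig4 and Csf1r had IgG peaks only. Of 8 endothelial markers with a peak, 3 were above (37.5%, against 27.8%): Kdr at 3.85, Cdh5 at 3.18 and Oit3 at 2.54. Per kb of peak these were at 1.38, 1.06 and 1.10. Stab2, Ptprb and Tek were within 2-fold, and Flt4 and Egfl7 had IgG peaks only. Pecam1, Stab1, Flt1, Lyve1 and Tie1 had no peak in either library. Stellate cell markers lay on the IgG side, with 0 of 9 above and 7 with IgG peaks only (27.8% and 20.3% of all genes). Reln, the stellate cell gene with most signal, had 59.65 tags in 8 peaks at 10 h against 3329 in 104 IgG peaks (0.0179, 0.0147 to 0.0217). Summed over each list, 10 h and rescaled IgG tags were 467.9 and 260.2 for Kupffer cells, 1356 and 1058 for endothelium, 500.1 and 721.6 for cholangiocytes and 82.1 and 4062 for stellate cells, of which Reln alone gave 59.65 and 3329. Fewer nuclei of a type and less RNA per nucleus cannot be told apart in pooled tissue, and the part of cell composition in the ratios was not tested.

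The lowest ratios had few 10 h tags against very high IgG signal. Zc3hav1, an antiviral RNA-binding protein, had 50.8 tags against 19943.8 (0.00255), of which a single intronic peak held 12457.5 on the deposited scale. Over regions with a peak in both libraries its ratio was 1.78. Sgta was at 0.00544 and Pabpc4 at 0.0137, while Ntm (0.00626), Bmp5 (0.0100), Reln and Plcl1 (0.0184) are long genes with 29 to 104 IgG peaks each. Ntm, known mainly from neurons, had 10.9 tags in 1 peak at 10 h. Per kb of peak Ntm stood at 1.03.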

How the data were processed

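RNA immunoprecipitation libraries of liver nuclei (anti-NONO at 3 times and IgG, each with its input) were used as peak lists. Tools named in the submitters' processing notes are FastQC 0.11.2, STAR 2.4.0k and HOMER, with mm10. Windows of 500 bp were joined within 1000 bp on both strands together, per the file headers, and kept by the authors at 2-fold over input or more and at thresholds of 11 tags (10 h) and 8 tags (IgG). The deposited signal is the authors' tag number per 10000000 tags of the library. The deposited count is the tags of a peak, and fold is the ratio over scaled input tags, as deposited. The deposited score is HOMER's peak score per the file headers and ranks nothing here.

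Peak tags were assigned to each GENCODE vM21 gene overlapped by 1 bp or more, several where they overlap, because the lists carry no strand. Peaks took 1 annotation class by midpoint, with promoters set at 1000 bp. Shares have Clopper-Pearson intervals and ratios conditional binomial intervals. With 1 library a group, 2-fold was the call.

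The members, the 16 gene lists and the rule for named genes were chosen with earlier results of these data known. The rule names the 10 largest ratios (at least 100 tags), the 10 most tagged genes without an IgG peak, the 8 most tagged, the 8 lowest ratios (in each ranking, 80% or more of the tags in peaks over 1 gene), up to 4 members of each list, and fixed genes. A few genes named by this rule are left out of the text. Other list members are named to show a list's range, after their values were seen. In simulated data all 1500 planted overlaps were found. Base composition of peaks was not analysed here. Python 3.11.15, pandas 2.3.3 and scipy 1.17.1 were used.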

Additional observations from a re-analysis of the deposited data

Results flagged for a closer look

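For 7 reported genes the ratio to rescaled IgG lay on opposite sides of 2-fold at 10 h and at another time. The 3 comparisons share the IgG library, each time is 1 library, and the difference was not tested. Cyp7b1, which hydroxylates oxysterols, was at 0.361 at 10 h and 3.72 at 2 h, but the 10 h ratio was 18.1 when only peaks at 3-fold over input were counted. Egfr was at 0.301 at 10 h and 3.99 at 2 h. Elovl6, a fatty acid elongase, was at 0.306 at 10 h and 2.13 at 2 h. Per1 was at 0.202 at 10 h and 2.12 at 2 h, resting on 14.8 and 155.5 normalised tags. Nr1d2, which encodes a REV-ERB repressor, was at 0.206 at 10 h and 2.49 in the fasted library, with 30.1 and 364.2 tags, but at 1.35 per kb of peak at 10 h. In the other direction, Phka2, a phosphorylase kinase subunit, was at 2.64 at 10 h and 0.325 at 2 h, and its 10 h ratio was 0.715 over peaks at 3-fold over input. Likewise Fn1, the fibronectin gene, was at 2.34 at 10 h and 0.207 in the fasted library, with 3033.1 and 268.1 tags.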

How the results depend on the processing

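No paired analysis was possible because there is a single library in each group. The share of 10 h peaks without an IgG peak (60.5%) became 75.3% when IgG peaks had to cover 50% of the peak, 44.0% when an IgG peak within 1000 bp counted, 70.4% with IgG peaks held to the 10 h tag threshold, 79.5% at 3-fold over input in both lists and 75.4% at 3-fold in the 10 h list only. The number of genes above background (2916) became 1890 by tags per kb, 680 over regions with a peak in both libraries, 1824 at 3-fold over input, 1246 with at least 50 normalised tags and 1594 with 2 or more 10 h peaks. It stayed within 1.5 times under the other settings, with 4102 on the deposited scale, 2481 by peaks over 1 gene, 4153 with the 10 h tag threshold for IgG, 2284 by a 3-fold rule and 2901 without peaks over small RNA genes. The 1605 genes without an IgG peak have no ratio. They stayed by rule in the counts by tags per kb, on the deposited scale and by the 3-fold rule. Among the 6746 genes with peaks in both libraries, the 90th percentile of the ratio per kb was 1.57, under the 2-fold line. The median ratio (0.948) was 1.52 on the deposited scale, 0.971 by peaks over 1 gene, 1.004 per kb, 1.03 over shared regions, 0.534 at 3-fold over input and 1.11 with the 10 h tag threshold for IgG. Among the genes reported with a 2-fold call, some ratios changed sides. Per kb these were Airn (1.05), Ass1 (1.98), Ghr (1.25), Kcnq1ot1 (1.21), Nr1d2 (1.35), Ntm (1.03), Pik3r1 (1.06) and Pygl (1.05). At 3-fold over input they were Arntl (0.836), Cyp51 (0.158), Cyp7b1 (18.1), Gm31508 (0.275), Hadhb (0.781), Phka2 (0.715), Phkb (0.292), Phkg2 (0.845), Rps6kb1 (0.359) and Slc2a2 (2.47). Over shared regions they were Airn (2.10), Eif4g2 (0.452), F2 (0.428), Hnrnph3 (0.844), Pygl (1.25), Rps6kb1 (0.843) and Zc3hav1 (1.78), by peaks over 1 gene Cry2 (1.15), with the 10 h tag threshold Airn (1.31), and without small RNA peaks Eif4g2 (0.330) and Gsk3b (1.08). The cause was not tested beyond what each setting removes. Of the 77 such genes, 31 stayed past 2-fold on the same side per kb, 66 on the deposited scale and 34 of 53 over shared regions. The 3-fold limit on the 10 h list alone, the removal of small RNA peaks and the minimum of 2 peaks were chosen after seeing the data. An IgG peak is listed only from 8 tags, which limits every ratio over lowly covered genes.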
